A study of Drosophila subpalustris with 2 samples.

Results

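The 65 gene models described here had far more RNA in replicate 1 than in replicate 2 of whole adult Drosophila subpalustris, a fly of the quinaria group. They were chosen from 17716 models by their place in the table, their level and the ratio of the 2 libraries. The tables list the models by locus tag in 7 blocks, and a new block begins wherever the tag number falls. The members lie in blocks 1 to 4, have a mean of 10 to below 1000 CPM (sense counts per 1e6 assigned sense counts) and at least 8 times the CPM in replicate 1. Of 6333 models of that level in these blocks, 65 (1.03%) met the rule, against 21 (0.332%) that met its mirror image towards replicate 2. The ratio chose the members, so their sense values are given as a description, without a test.

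Polyadenylated RNA was sequenced from 2 pools of 10 to 20 adults, each of males and females together, kept on a cornmeal, sucrose and yeast medium at room temperature. Both pools form 1 group with no treatment, and the labels give no strain, age or ratio of males to females. Replicate 1 had 26141490 sense counts in gene models and replicate 2 had 25544996. The models are predictions that used these reads as evidence, and the tables give them locus tags but no gene names. No function, tissue or sex is therefore assigned to any member, and the labelled tissue was not checked against marker genes.

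Whole-body RNA mixes the transcripts of every organ of both sexes in proportion to how much RNA each contributes. Many fly genes are active mainly in a single organ, such as the ovary, the testis or the gut. In such bulk RNA, fewer cells of a type and less RNA per cell cannot be told apart. In Drosophila, genes that are active in the same tissue are known to lie side by side in parts of the genome, and for this reason the neighbours of the members by locus tag are described as well.

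The members carried 89296 sense counts in replicate 1, which is 0.342% of that library, and 8845 in replicate 2, which is 0.0346%. Their sense levels ran from 18.5 to 272 CPM in replicate 1 (median 39.7) and from 1.02 to 29.1 CPM in replicate 2 (median 3.91). Each member reached at least 10 counts in both libraries, with a lowest count of 26. All 65 were thus detected in both pools. This is not particular to them, since the lowest sense counts over the 6333 models of the class were 12 in replicate 1 and 26 in replicate 2. In replicate 1 the median member stood at the 54.7th percentile of the 6333 models, and in replicate 2 at the 1.17th percentile. In replicate 1 the members were therefore of ordinary level for the class, and in replicate 2 most were among its lowest, which the rule itself favours. In replicate 2, 60 of the 65 were below 10 CPM and 40 were below 5 CPM.

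**Figure D1:**
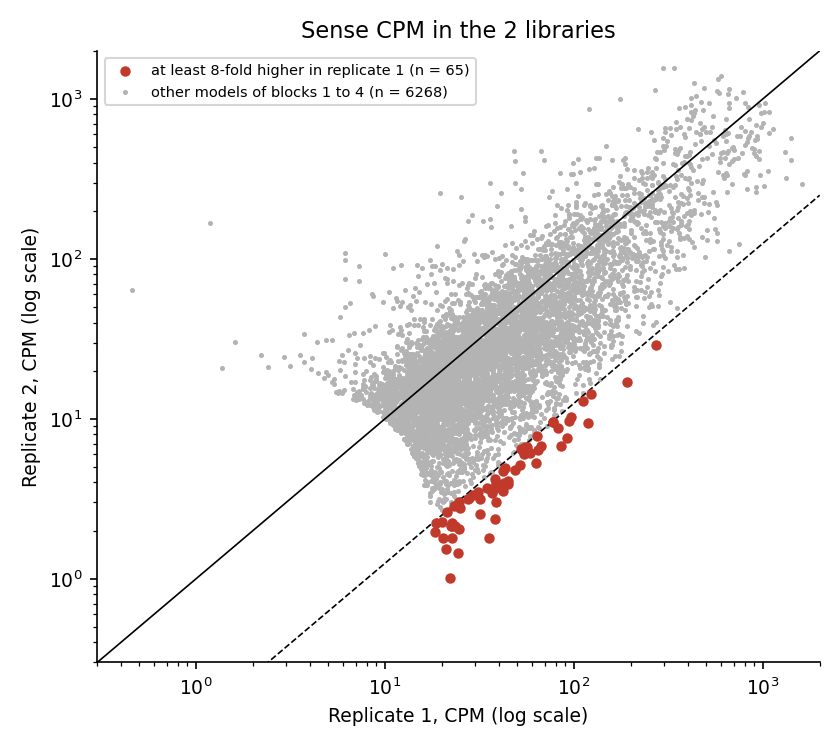
Sense CPM of the 6333 models of blocks 1 to 4 with a mean of 10 to below 1000 CPM, replicate 1 on the horizontal and replicate 2 on the vertical axis, both on a log scale. The solid line marks equal CPM and the dashed line an 8-fold higher CPM in replicate 1; the 65 red points lie on or under it, between 18.5 and 272 CPM in replicate 1 and between 1.02 and 29.1 CPM in replicate 2.

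The ratios of the members fell off steeply from the minimum of 8. They ranged from 8.08 to 21.7 with a median of 9.90, and 23 members lay below 9, 11 from 9 to below 10, 19 from 10 to below 12, 8 from 12 to below 16 and 4 at 16 or more. These 4 were 0.0632% of the class, and 5 models (0.079%) were as far apart towards replicate 2. The log2 ratio (replicate 1 over replicate 2) had a median of 0.44 and an SD of 1.05 over the models of the class, and 68.1% of the models had the higher CPM in replicate 1. At least 4-fold differences numbered 489 (7.72%) towards replicate 1 and 89 (1.41%) towards replicate 2, and at least 2-fold differences 1932 (30.5%) and 321 (5.07%). On this scale the members are the end of a distribution that leans towards replicate 1. That lean turns with the scaling, since the median log2 ratio of the class was -0.10 after scaling by trimmed mean of M-values (TMM), which centres the ratios of most models and divides every ratio of replicate 1 to replicate 2 by 1.46.

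ACLKA7_016906 had the largest ratio, with 578 counts (22.1 CPM) in replicate 1 and 26 counts (1.02 CPM) in replicate 2. Its ratio was 21.7, with a 95% counting interval of 14.7 to 33.5. ACLKA7_010937 followed with 930 and 46 counts in replicates 1 and 2, a ratio of 19.8 (14.7 to 27.2). The counting intervals of these 2 models overlap, so their order is not resolved at this depth. ACLKA7_008189 had 636 counts in replicate 1 and 37 in replicate 2, with a ratio of 16.8 (12.1 to 24.1). ACLKA7_012655 had 1002 counts in replicate 1 and 60 in replicate 2, with a ratio of 16.3 (12.6 to 21.5). ACLKA7_016628 came next with 547 counts in replicate 1 and 39 in replicate 2, with a ratio of 13.7 (9.90 to 19.5). All 5 had a mean between 11.2 and 20.3 CPM, below the median of 31.0 CPM of the class. ACLKA7_009920, ACLKA7_002952, ACLKA7_015890, ACLKA7_013470, ACLKA7_001994, ACLKA7_013471 and ACLKA7_016852 completed the 12 largest ratios, from 12.8 down to 12.1.

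CPM is not corrected for model length, so the order of levels among models is an order of counts. The highest level belonged to ACLKA7_013431, with 7121 counts (272 CPM) in replicate 1 and 744 counts (29.1 CPM) in replicate 2, a mean of 151 ± 172 CPM (SD, n = 2). Its ratio of 9.35 had a counting interval of 8.67 to 10.1. ACLKA7_010022 had 4988 counts (191 CPM) in replicate 1 and 437 counts (17.1 CPM) in replicate 2, with a ratio of 11.2 (10.1 to 12.3). These were the 2 members with a mean above 100 CPM. ACLKA7_004345 had 3229 counts in replicate 1 and 367 in replicate 2, with a ratio of 8.60 (7.72 to 9.60). ACLKA7_015890 combined a mean of 63.8 CPM with one of the larger ratios. It had 3092 counts in replicate 1 and 239 in replicate 2, with a ratio of 12.6 (11.1 to 14.5). ACLKA7_016542 had 2932 counts in replicate 1 and 330 in replicate 2, with a ratio of 8.68 (7.75 to 9.76). With these counts the intervals, which cover counting error on this scale only, are narrow. After TMM scaling the ratio of ACLKA7_010022 was 7.65. ACLKA7_011254, ACLKA7_012754, ACLKA7_016852, ACLKA7_002952, ACLKA7_000635, ACLKA7_015958 and ACLKA7_015611 made up the rest of the 12 most abundant members, with means from 53.1 down to 43.4 CPM.

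The members belonged to the lower part of the level range. The median of their mean CPM was 21.8, against 31.0 over all 6333 models, and 46 of the 65 lay under the median of the class. Of the models with a mean of 10 to below 20 CPM, 25 were members (1.28%), and of those with 20 to below 50 CPM, 33 were (1.41%). Between 50 and 100 CPM there were 5 members (0.457%), between 100 and 200 CPM 2 (0.374%) and above that none of 404 (0%). Towards replicate 2 the shares in the same order were 0.306%, 0.256%, 0.366%, 0.561% and 0.495%, from 6, 6, 4, 3 and 2 models. On this scale the excess towards replicate 1 stood in the models below 50 CPM, and above 100 CPM the numbers were too small for an order. After TMM scaling the excess turned, with 12 models 8-fold or more above replicate 2 in replicate 1 and 51 the other way, of which 11 and 26 had a mean below 50 CPM. No test was attached to these shares, because the level limits and the ratio belong to the rule.

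**Figure D2:**
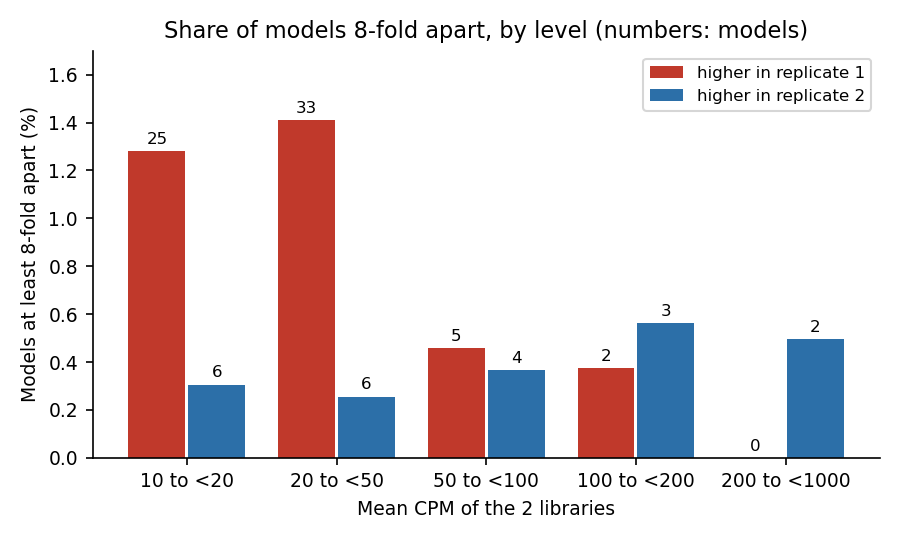
Share of models at least 8-fold apart in each range of mean CPM, in percent, for models higher in replicate 1 (red) and in replicate 2 (blue), with the number of models above each bar. The red bars reach 1.28% and 1.41% in the ranges below 50 CPM, where the blue bars stay at 0.306% and 0.256%.

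The fold minimum cuts through a continuous range. Just inside it, ACLKA7_010265 had 1372 counts in replicate 1 and 166 in replicate 2, with a ratio of 8.08. ACLKA7_015611, with 2017 and 244 counts, and ACLKA7_002333, with 604 and 73 counts, also had ratios of 8.08 and 8.09. Just outside, ACLKA7_015942, ACLKA7_013193 and ACLKA7_010403 had ratios of 7.94, 7.94 and 7.92. The counting intervals of models on either side overlap, and a further 115 models had ratios from 6 to below 8. For 35 of the 65 members the lower bound of the counting interval was itself at 8 or more. At the level minimum, ACLKA7_013213, ACLKA7_012228 and ACLKA7_002745 were just inside with 10.2, 10.4 and 11.04 CPM, and ACLKA7_002967 and ACLKA7_004091 just outside with 9.78 and 9.75 CPM. No model of these blocks with 1000 CPM or more had an 8-fold higher CPM in replicate 1, out of 151.

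The members were spread over all 4 blocks at nearly the same rate. Block 1 held 15 of its 1501 models of the level (0.999%), block 2 held 17 of 1551 (1.10%), block 3 held 13 of 1438 (0.904%) and block 4 held 20 of 1843 (1.09%). In the blocks outside the rule, the same level and ratio were met by 5 of 56 models in block 5 (8.93%), 20 of 1254 in block 6 (1.59%) and none of 6 in block 7 (0%). Block 3 had the largest range of ratios, from ACLKA7_015611 at 8.08 to ACLKA7_016906 at 21.7. The largest ratio of block 1 was that of ACLKA7_002952, which had 2247 counts in replicate 1 and 172 in replicate 2, with a ratio of 12.8 (10.9 to 15.0). The members of block 1 had the lowest median level, 17.4 CPM, and those of block 3 the highest, 32.4 CPM, with ranges of 11.04 to 68.9 and 11.2 to 63.8 CPM that overlap almost fully.

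Within each block the members were scattered. The median distance between successive members was 152 places in block 1, 130.5 in block 2, 163.5 in block 3 and 142 in block 4. Cut into 5 equal stretches, block 1 held 4, 3, 2, 3 and 3 members in order, block 2 held 4, 5, 2, 5 and 1, block 3 held 1, 1, 5, 4 and 2, and block 4 held 3, 2, 4, 8 and 3. The models of the level in these stretches numbered 224, 321, 330, 346 and 280 in block 1. In block 2 they numbered 247, 316, 356, 282 and 350, and in block 3 245, 252, 335, 284 and 322. Block 4 had 351, 396, 338, 383 and 375. The longest stretch without a member, 714 places, lay in block 3 between ACLKA7_014897 and ACLKA7_015611. The tags of a block are not all consecutive, and the longest consecutive runs of the 4 blocks together held 62 of the 65 members. In block order, these runs held 1436 of 1501, 1362 of 1551, 1428 of 1438 and 1762 of 1843 models of the level. The other 3 members, ACLKA7_000520, ACLKA7_000591 and ACLKA7_000635, lay in a run of 433 models, 189 of them of the level, at the start of block 2.

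**Figure D3:**
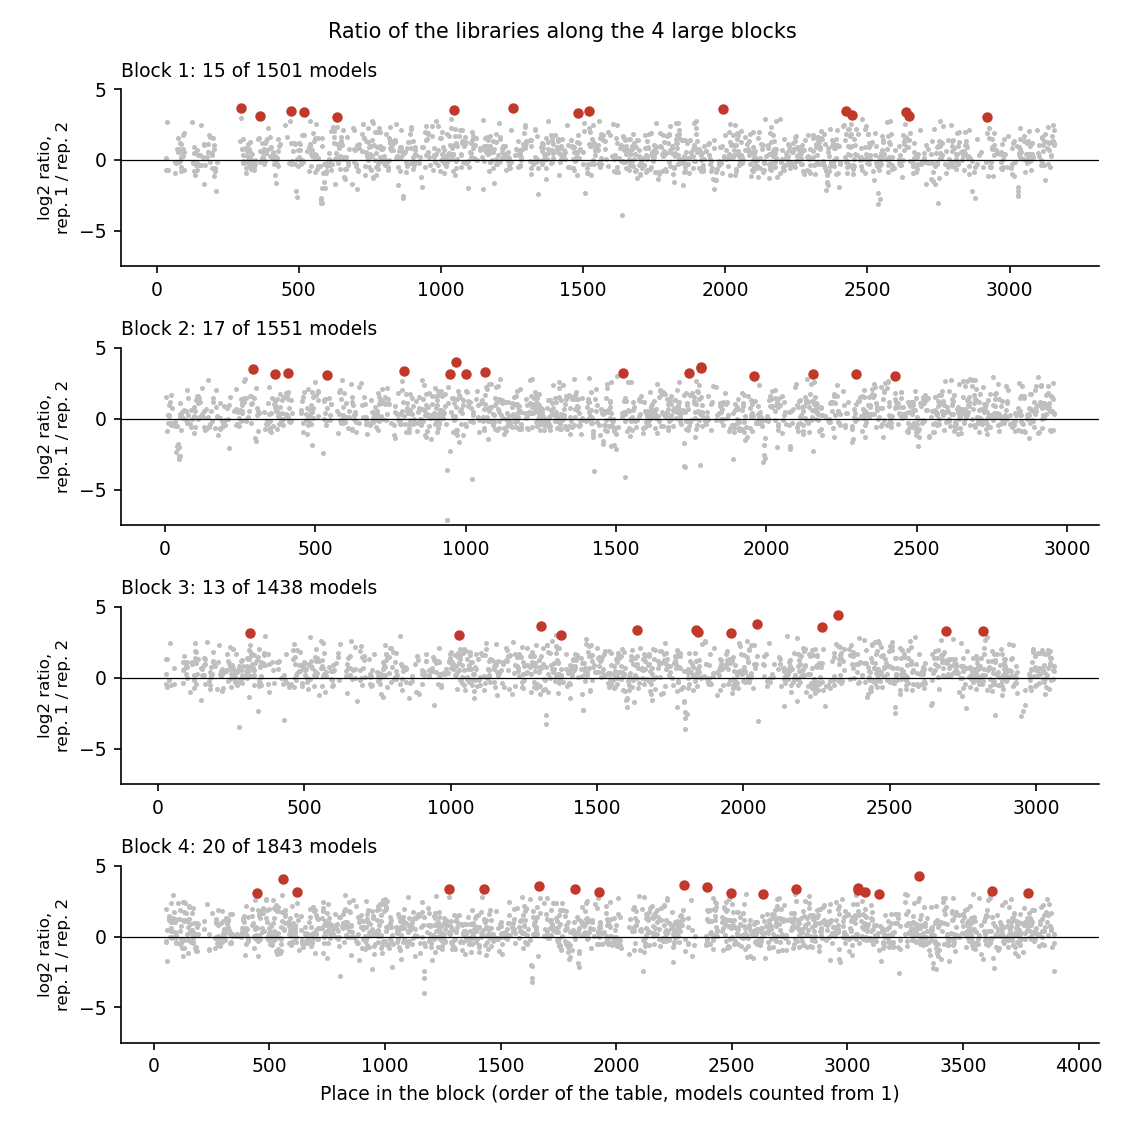
Log2 ratio of replicate 1 to replicate 2 of the 6333 models of the level along blocks 1 to 4, by place in the table. Members (red) numbered 15, 17, 13 and 20 in blocks 1 to 4 and occurred in every stretch when each block is cut into 5.

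Only 4 members had another member within 5 tags, in 2 adjacent pairs. This was 6.15% of the members, and 336 of all 6333 models of the level (5.31%) had a member within 5 tags. Since both pairs are adjacent, the same 6.15% applies within 1 and 2 tags, against 1.14% and 2.18% of the models of the level. These shares rest on 2 pairs and carry no test. The next closest were ACLKA7_016421 and ACLKA7_016427 at 6 tags and ACLKA7_004333 and ACLKA7_004345 at 12 tags. Of the 21 models far higher in replicate 2, 7 (33.3%) had another of their kind within 5 tags. Among all models of the level, 1.61% had such a model within 5 tags.

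In the first pair, ACLKA7_013470 had 837 counts in replicate 1 and 65 in replicate 2, with a ratio of 12.6 (9.77 to 16.5). ACLKA7_013471 had 646 counts in replicate 1 and 52 in replicate 2, with a ratio of 12.1 (9.14 to 16.4). The 2 ratios differ by less than their counting error. On the far side, ACLKA7_013472 had 742 counts in replicate 1 and 255 in replicate 2, and ACLKA7_013473 had 1452 and 741. Their log2 ratios were 1.51 and 0.94. On the near side ACLKA7_013469 had no sense count, which allows up to 3 in each library, and ACLKA7_013468 had 445 and 342. ACLKA7_013467, 3 tags from the pair, went the other way, with 662 counts in replicate 1 and 6196 in replicate 2. A model 9.58-fold higher in replicate 2 thus stood almost beside 2 that were more than 12-fold higher in replicate 1.

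In the second pair, ACLKA7_010674 had 1013 counts in replicate 1 and 100 in replicate 2, with a ratio of 9.90 (8.05 to 12.3). ACLKA7_010675 had 1109 counts in replicate 1 and 102 in replicate 2, with a ratio of 10.6 (8.67 to 13.1). These ratios, too, differ by less than their counting error. ACLKA7_010676, the next model, had 3373 counts in replicate 1 and 960 in replicate 2, while ACLKA7_010677 had 971 and 1315. On the log2 scale these ratios were 1.78 and -0.47. Whether each pair is 2 genes or 1 gene predicted as 2 models was not tested.

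The models next to members also had higher ratios than models next to others of the level, though smaller ones than the members. Each member has a previous and a next tag, which gives 130 neighbours, and 74 of them had a mean of 10 CPM or more. Their median log2 ratio was 1.06 (quartiles 0.22 to 1.55), against 0.41 (-0.22 to 1.14) for the 7565 such neighbours of all models of the level. Of the 74, 40 (54.1%) were 2-fold or more above replicate 2 in replicate 1, and 3 (4.05%) went as far the other way, against 29.2% and 4.92% around all models of the level. Without the neighbours that are members themselves, the median over the remaining 70 was 1.01. After TMM scaling the medians were 0.51 around members and -0.14 around all models of the level, since this scaling moves both by the same amount. Neighbours share a library pair with the members, so this is the same contrast and carries no test.

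By distance, the median log2 ratio was 1.06 at the previous and 1.04 at the next tag, then 0.35 at 2 tags before and 0.96 at 2 tags after. At 4 tags it was 0.41 before and -0.06 after, and at 7 tags 0.86 before and 1.03 after, so the medians did not decline evenly. Over all neighbours within 5 tags the median was 0.64, against 0.40 around all models of the level. The quartiles at each distance are wide, from 0.24 to 1.51 at the previous tag alone, over 26 to 41 models per distance up to 10 tags.

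**Figure D4:**
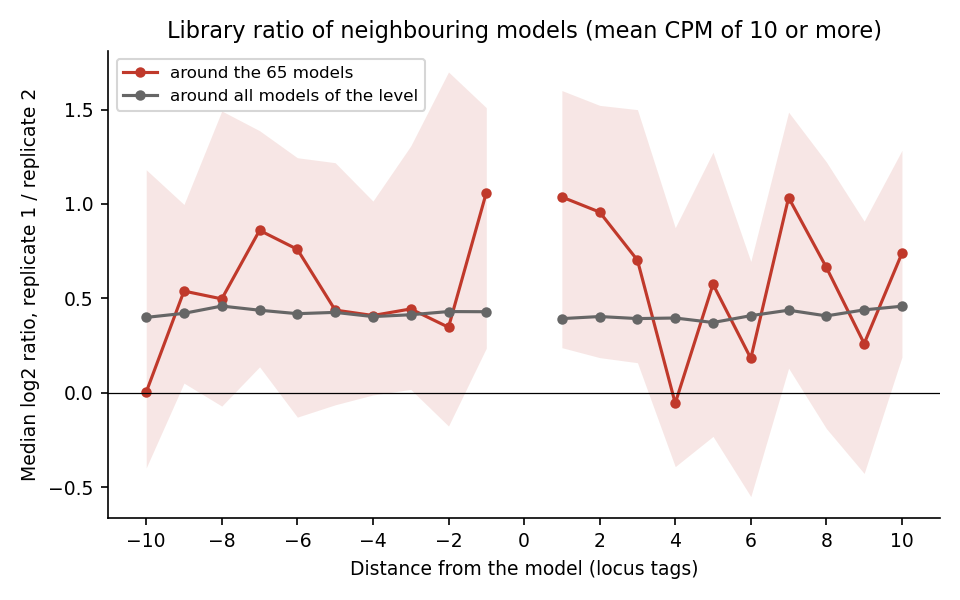
Median log2 ratio (replicate 1 over replicate 2) of neighbouring models with at least 10 CPM on average, by distance in locus tags from the 65 members (red, band: quartiles) and from all models of the level (grey). The red medians are 1.06 and 1.04 at the adjacent tags. Farther out they vary, above the grey line at most distances and below it at others, such as 4 tags after.

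Among the 110 neighbours with a mean of 1 CPM or more, 12 (10.9%) reached an 8-fold higher CPM in replicate 1 themselves, against 1.86% around all models of the level. The 4 members of the adjacent pairs are among the 12, and the other 8 had means below the level minimum. ACLKA7_010265 had such a model on both sides. It had 1372 counts in replicate 1 and 166 in replicate 2. ACLKA7_010264 before it had 282 counts in replicate 1 and 28 in replicate 2, and ACLKA7_010266 after it had 217 and 24. These were ratios of 9.84 and 8.84, which makes 3 models in a row at 8-fold or more. Next to ACLKA7_013431, the most abundant member, ACLKA7_013432 had 251 counts in replicate 1 and 21 in replicate 2, with a ratio of 11.7. The remaining 5, ACLKA7_002220, ACLKA7_003690, ACLKA7_012634, ACLKA7_010122 and ACLKA7_010765, had ratios of 8.61 to 10.7. They sit beside ACLKA7_002219, ACLKA7_003691, ACLKA7_012635, ACLKA7_010123 and ACLKA7_010766.

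Around 3 of the 4 members of largest ratio, the neighbours on either side differed. ACLKA7_012655, at 16.3-fold, lay between ACLKA7_012654, with 602 counts in replicate 1 and 508 in replicate 2, and ACLKA7_012656, with 482 and 797. ACLKA7_016906, the member of largest ratio, followed ACLKA7_016905, with 1261 counts in replicate 1 and 1413 in replicate 2, and preceded ACLKA7_016907, with 3135 and 648. ACLKA7_010937 followed ACLKA7_010936, which had 2380 counts in replicate 1 and 346 in replicate 2, and preceded ACLKA7_010938, which had 22 and 42. In these 3 cases at least 1 neighbour had more counts in replicate 2 than in replicate 1. Both neighbours of ACLKA7_008189, the other of the 4, were higher in replicate 1. ACLKA7_008188 before it had 228 counts in replicate 1 and 45 in replicate 2, and ACLKA7_008190 after it had 275 and 175. Over the 22 members with both neighbours at 10 CPM or more, both neighbours reached a 2-fold higher CPM in replicate 1 in 4 cases (18.2%), against 9.03% of 2336 such models of the level. Both were higher in replicate 2 in none of the 22, against 11.6% of those 2336. In 21 of the 22 the member had a larger ratio than both neighbours, which its choice favours.

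The neighbours did not stand out by level. Of the 130, 20 (15.4%) were below 1 CPM, against 14.3% around all models of the level, and 8 (6.15%) reached 100 CPM, against 10.4%. Both neighbours were below 1 CPM for 3 of the 65 members (4.62%). No such share was taken over the models of the level, so this count is not part of that comparison. The neighbour with the highest mean CPM was ACLKA7_004144, next to ACLKA7_004143, with 33536 counts (1283 CPM) in replicate 1 and 66400 counts (2599 CPM) in replicate 2. ACLKA7_004143 itself had 649 counts in replicate 1 and 71 in replicate 2.

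Some members were close to models of the opposite kind. Within 5 tags of a model at least 8-fold higher in replicate 2 lay 4 members, 6.15% of the 65, against 1.61% of the models of the level. These were ACLKA7_013470 and ACLKA7_013471, described above, ACLKA7_013213 and ACLKA7_016628. ACLKA7_013213 had 483 counts in replicate 1 and 50 in replicate 2, and 4 tags away ACLKA7_013217 had 161 and 2780. ACLKA7_016633, 5 tags from ACLKA7_016628, had 76 counts in replicate 1 and 620 in replicate 2. Opposite 8-fold differences between the same libraries therefore occurred a few models apart at 3 places.

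Antisense counts, from a column of the same 2 libraries that the rule did not use, behaved unlike the sense counts of the same models. Over the 65 members they summed to 851 in replicate 1 and 809 in replicate 2, a CPM ratio of 1.03 (95% counting interval 0.932 to 1.13), while the sense ratio of the sums was 9.87. Over the other 6268 models of the level the antisense ratio was 1.04 and the sense ratio 1.23. The closeness of 1.03 and 1.04 rests on 1 member, ACLKA7_010123, with 254 of the 809 antisense counts in replicate 2. Without it the antisense ratio over the members was 1.25 (1.11 to 1.40). Scaling moves both strands alike. Under any scaling the sense ratio was 9.60 times the antisense ratio in members, ACLKA7_010123 included, and 1.18 times in the other models. The antisense share of strand-specific counts in members was thus 0.944% in replicate 1 (95% exact interval 0.882 to 1.01) and 8.38% in replicate 2 (7.83 to 8.95). In the other models of the level it was 0.838% in replicate 1 and 0.990% in replicate 2. The median over members was 0.554% in replicate 1 and 4.35% in replicate 2. A lower sense count in replicate 2 raises this share by itself, and the sense ratio is what chose the members. The antisense sums do not depend on that choice in the same way.

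Antisense counts reached 10 in at least 1 library in 26 members (40.0%), against 26.6% of the models of the level. In these 26 the antisense CPM ratio of replicate 1 to replicate 2 had a median of 1.30, and antisense CPM was higher in replicate 2 in 10 (38.5%), against 35.0% of the 1687 such models of the level. After TMM scaling it was higher in replicate 2 in 17 of the 26. This scaling lowers the ratio of every model by the same factor, so the shift is not particular to the members. The counting interval of the antisense ratio included 1 in 18 of the 26 (17 after TMM scaling), and it reached up to the sense ratio of the same model in 4. In the other 22 the whole interval lay below the sense ratio. The rule sets every sense ratio at 8 or more, so this outcome was largely fixed by the choice of members. The interval counts describe the 26 members only, without a share over the models of the level. Over models of the level with such antisense counts in a library and at least 1 count in each, the median antisense ratio was 1.37. An antisense ratio above 8 occurred in 2 of the 26 members (7.69%), both on few counts, against 4.27% of the 1687 models of the level with such antisense counts. ACLKA7_002219 had 12 antisense counts in replicate 1 and 1 in replicate 2, and ACLKA7_016906 had 10 and 1.

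ACLKA7_010123 had the most antisense counts, 143 in replicate 1 and 254 in replicate 2. Its sense counts were 1403 in replicate 1 and 163 in replicate 2, with a ratio of 8.41. Antisense made up 9.25% of its strand-specific counts in replicate 1 and 60.9% in replicate 2, so the strand with more counts changed between the libraries. The unstranded column held all of its counts, whereas reads that overlap a second model on the opposite strand drop out of that column as ambiguous. Without ACLKA7_010123 the antisense ratio over the members was 1.25 (1.11 to 1.40), an interval above the 1.04 of the other models of the level. ACLKA7_002745 had 8 antisense counts in replicate 1 and 33 in replicate 2, beside 530 and 46 sense counts. ACLKA7_003180 had 79 antisense counts in replicate 1 and 64 in replicate 2, beside 1037 and 100 sense counts. In replicate 2 the antisense shares of these models were 41.8% and 39.0%. ACLKA7_003180 lacked 21 counts in replicate 1 and 24 in replicate 2 in the unstranded column, as did its neighbour ACLKA7_003179. Its antisense counts may therefore include sense reads of that neighbour, and these were not separated.

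**Figure D5:**
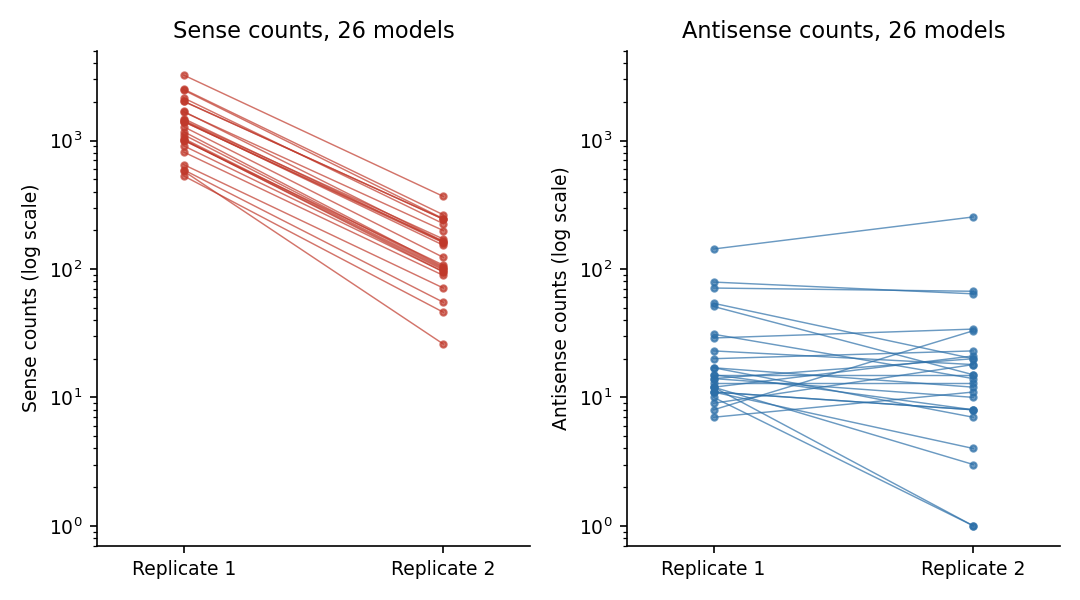
Sense counts (left) and antisense counts (right) of the 26 members with at least 10 antisense counts in a library, replicate 1 joined to replicate 2 for each model, on a log scale. Every sense line falls steeply towards replicate 2, as the rule requires. The antisense lines run in both directions, up to 143 in replicate 1 and 254 in replicate 2 for ACLKA7_010123.

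Overlap with a model on the opposite strand was read from counts missing in the unstranded column. Any strand-specific count was missing there in 9 of the 65 (13.8%), against 21.4% of the models of the level. At least 10% of the counts of a library were missing in 2 members (3.08%), in replicate 2 in both, against 0.853% of the models of the level. ACLKA7_003180 lacked 21 counts in replicate 1 and 24 in replicate 2, and its neighbour ACLKA7_003179 lacked the same numbers. This neighbour had 906 sense counts in replicate 1 and 363 in replicate 2. ACLKA7_017401 lacked 59 counts in replicate 1 and 16 in replicate 2, while ACLKA7_017400 beside it lacked 8 and 4. With unstranded counts in place of sense counts, 52 of the members kept a ratio of at least 8.

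The size of the ratios depends on how the libraries are scaled. TMM scaling gave the members ratios of 5.54 to 14.9 with a median of 6.79. All 65 stayed at 4-fold or more in replicate 1 on this scale, and 14 reached 8-fold, of which ACLKA7_016906 and ACLKA7_016628 fell below a mean of 10 CPM. The spread between the libraries over all models was wide, with a common dispersion of 0.256 by edgeR, a coefficient of variation of 50.6%. Reads that mapped to several places, which were assigned to no model, made up 2.00% of replicate 1 and 3.12% of replicate 2. Reads outside the sense strand of any model's exons made up 24.6% of replicate 1 and 30.7% of replicate 2. Their part in the ratios of the members was not tested.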

How the data were processed

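Each library came with 1 deposited table of raw counts, with 3 count columns (either strand, antisense, sense) and 4 rows of totals that were left out of library sizes; those unassigned reads were 38.3% of replicate 1 and 41.2% of replicate 2. Tools were fastp and STAR 2.7.11b, per the submitters' processing notes, and BRAKER 3.0.6 for the models, per the series description; their settings were not among the labels. The column meanings were read from the STAR layout, and the last column was taken as sense for its larger sum.

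CPM used the sum of sense counts. A count of 0 allows up to 3 counts, or 0.115 CPM (replicate 1) and 0.117 CPM (replicate 2). Intervals are exact (Clopper-Pearson, 95%) and, like this limit, cover counting error only, since reads carry no molecular identifiers. Neighbours are the previous and next tag of the block. Dispersion used edgeR 4.0.16 with TMM over 12957 models with 10 counts in a library; DESeq2 1.42.0 gave other size factors (R 4.3.3, Python 3.11.15, pandas 2.3.3, scipy 1.17.1). Procedures were tested on simulated data. No test between conditions exists with 1 group. The members were chosen with earlier results of these data known. Models were named by rank of ratio, level and antisense share, nearness to the limits of the rule, the largest ratio per block, other members within 5 tags, and missing unstranded counts; neighbours, models at 8-fold beside members and those near the opposite kind were chosen after their values were seen. Alternatives covered scaling, count column, limits, windows and each library alone.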

Additional observations from a re-analysis of the deposited data

Results flagged for a closer look

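ACLKA7_010123 had 254 antisense counts in replicate 2, more than its 163 sense counts there, and 143 antisense against 1403 sense counts in replicate 1. It was singled out because this signal lies outside the sense counts that define the members and exceeds the 3 counts that a count of 0 allows. It was the single member in which antisense exceeded sense in a library.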

How the results depend on the processing

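Of 33 alternatives, 16 left the value within the spread between the libraries, within 0.1 log2 or within 1.5 times the count, and 17 did not. The number of members, 65, was 489 at a 4-fold, 180 at a 6-fold and 4 at a 16-fold minimum. It was 12 with TMM, with DESeq2 size factors and with upper quartile scaling, and all 12 were among the 65 each time. It was 106 from 5 CPM, 40 from 20 CPM, 7 from 50 CPM, 34 with a pseudocount of 1 CPM and 35 by the lower counting bound. With all input reads as the total it was 60, of which 46 were among the 65, so it counts among the 16 by its number alone. Members near another member, 4 within 5 tags, were 10 within 20 tags, 2 of 12 with TMM and 182 of 489 at 4-fold. The median log2 ratio of neighbours, 1.06, was 0.64 within 5 tags and 0.51 with TMM, against -0.14 around all models of the level with TMM. The median of the mean CPM, 21.8, was 3.91 without replicate 1 and 39.7 without replicate 2. Both count among the 16 only because the spread between the libraries is wide in models chosen for that difference. They therefore show no stability of the level. The antisense share of the members over both libraries, 1.66%, was 8.38% without replicate 1 and 0.944% without replicate 2. The choice of members needs both libraries, so neither can be left out of it. No paired analysis was possible because the series has 1 group. The lowest sense count of a member was 26, and depth limits single ratios. It limits membership too, since only 35 of the 65 were kept by the lower counting bound.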
